A study of Mus musculus with 18 samples.

Results

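The 37 interferon-stimulated genes described here are the rows of the gene count table whose symbols are in a fixed list of interferon response genes, with the Ifi200 cluster left out. They are 37 of 23337 rows in the table, and all 37 passed the low-count filter that left 15482 genes for testing. By role they are 4 sensors of viral RNA and their regulators, 4 transcription factors, 2 genes of the ISG15 system, 18 antiviral effectors, 2 chemokines, 4 GTPases induced by interferon gamma and 3 genes of antigen processing. PolyA RNA was sequenced from mammary glands of Cip2a-/- and wild-type (WT) mice on a C57BL/6Jx129 background, dissected without the lymph nodes. The protein Cip2a, absent from the mutants, inhibits PP2A phosphatase. There were 3 Cip2a-/- and 3 WT libraries in each of 3 conditions. Untreated mice received nothing. DMBA (7,12-dimethylbenz[a]anthracene) is an aryl hydrocarbon that mutates DNA once metabolised and induces mammary tumours. The 2-week glands were taken 2 weeks after the last of 6 weekly gavages with 1 mg DMBA in oil, begun at 12 to 14 weeks of age. The endpoint glands came from mice given the same doses and killed because a DMBA-induced tumour had arisen in some tissue, and the glands themselves held no tumour. The labels do not say how the Cip2a allele was made or how old the untreated and endpoint mice were. They also list no mice given oil alone. In comparisons of treated with untreated glands, DMBA, gavage of oil and any difference in age cannot be told apart.

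Total counts ranged from 16121743 to 24586404 per library. Cip2a itself had 2 reads in the untreated Cip2a-/- group and 0 reads in both treated ones, against 86, 203 and 202 reads in the untreated, 2-week and endpoint WT groups. Marker levels of cell types differed between glands within groups. The summed level of 8 T cell markers ran from 12.2 to 612 in counts-per-million (CPM), that of 10 B cell markers from 1.51 to 2388 CPM, that of 7 neutrophil markers from 9.08 to 374 CPM and that of 8 luminal epithelial markers from 49.0 to 3487 CPM. WT endpoint library 1 had the highest T and B cell sums and the lowest luminal epithelial sum, and Cip2a-/- untreated library 3 came next for T and B cells. The glands are described as dissected without the lymph nodes. The sum of 5 lymph node stroma markers was nevertheless 719 CPM in WT endpoint library 1 and 291 CPM in Cip2a-/- untreated library 3. Whether lymph node tissue remained in any gland was not tested. The sums of 8 skeletal muscle and 7 brown adipocyte markers ran from 18.7 to 74561 CPM and from 32.4 to 8482 CPM. Cip2a-/- 2-week library 1 had the highest muscle sum. WT endpoint library 1 had the highest brown adipocyte sum and a muscle sum of 47999 CPM. None of the T cell markers was at 0 in any library, while the B cell markers Ms4a1, Cr2, Pax5 and Fcrla and the neutrophil markers Retnlg, Mmp8 and Ngp were at 0 in some. The labels give each library a number of its own without stating that each is a separate mouse, and p-values measure the spread between these libraries.

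Interferons alpha and beta signal through a receptor made of Ifnar1 and Ifnar2 and the kinases Jak1 and Tyk2 to a complex that contains Stat2 and Irf9 and binds the interferon-stimulated response element (ISRE). Interferon gamma signals through Ifngr1 and Ifngr2 to factors that bind the gamma-activated site (GAS) and induce Irf1. The induced genes restrict viruses, sense nucleic acids, draw lymphocytes and present antigen, and many of them are transcribed at a low resting level in tissues with resident immune cells, the mammary gland among them.

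Promoter sequences for 30 of the 37 genes were taken from RefSeq (GRCm38.p6). Dhx58, Usp18, Mx1, Mx2, Oas2, Parp14 and Rtp4 had no entry. The core of the ISRE, GAAANNGAAA, was searched on both strands in the 250 bases before each start, with overlapping matches counted separately. It was found in 13 of 30 members (43.3%), against 821 of 27025 genes in the same windows (3.04%). The GAS core, TTCNNNGAA, was found in 7 of 30 members (23.3%), against 1940 of 27025 genes (7.18%). All 4 interferon gamma GTPase genes held the ISRE core, as did 6 of 13 antiviral effectors, the ISG15 gene, 1 of 2 chemokines and 1 of 4 transcription factors, while 0 of 3 sensors and 0 of 3 antigen processing genes held it in these windows. The 130 bases before the start are printed for the genes on which the results turn: Isg15 and Ifit1, which were highest in the same library, Rsad2 and Ifih1, which passed the test, and Gbp2 and Irgm1 for the GTPases. Capitals mark matches to the ISRE core on either strand.
Isg15, chr4:156200819-156200948, minus strand: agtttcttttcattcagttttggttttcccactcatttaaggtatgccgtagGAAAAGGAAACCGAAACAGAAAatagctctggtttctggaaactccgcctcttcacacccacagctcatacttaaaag
Ifit1, chr19:34640759-34640888, plus strand: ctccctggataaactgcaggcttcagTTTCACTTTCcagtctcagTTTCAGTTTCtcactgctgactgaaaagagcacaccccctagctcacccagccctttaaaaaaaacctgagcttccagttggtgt
Rsad2, chr12:26456453-26456582, minus strand: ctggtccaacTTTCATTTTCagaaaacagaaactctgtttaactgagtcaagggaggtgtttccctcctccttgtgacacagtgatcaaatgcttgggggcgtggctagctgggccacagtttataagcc
Gbp2, chr3:142620533-142620662, plus strand: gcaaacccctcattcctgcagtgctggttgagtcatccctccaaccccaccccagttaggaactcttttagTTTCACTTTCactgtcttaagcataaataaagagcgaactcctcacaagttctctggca
Irgm1, chr11:48871421-48871550, minus strand: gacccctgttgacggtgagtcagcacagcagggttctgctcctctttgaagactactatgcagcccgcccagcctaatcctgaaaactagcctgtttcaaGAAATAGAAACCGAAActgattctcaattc
Ifih1, chr2:62646256-62646385, minus strand: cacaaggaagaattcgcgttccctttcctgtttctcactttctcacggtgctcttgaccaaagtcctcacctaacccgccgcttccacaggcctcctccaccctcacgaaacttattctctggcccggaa
In Isg15 the matches begin at positions -78, -72 and -66 relative to the start and overlap one another. In Ifit1 they begin at -104 and -85, in Rsad2 at -120, in Gbp2 at -59 and in Irgm1 at -30 and -24. The Ifih1 window holds none of these letters. A match describes the letters and does not show binding.

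Across the 18 libraries the mean level of the members ran from 3.07 CPM for Oas3 to 129 CPM for Irf1. Per length, as CPM divided by kilobases of merged exons (RPKM), the highest mean levels were those of Psmb8 (71.9 RPKM), the virus-tethering gene Bst2 (69.4 RPKM) and Ifi35 (45.2 RPKM). The lowest were those of Oas3 (0.650 RPKM), Mx2 (1.499 RPKM) and Mx1 (1.70 RPKM). Their median standard deviation within groups was 0.52 on the log2 CPM scale, against 0.41 over all genes tested. The ratio of the highest to the lowest library ran from 1.65 for Ifi35 to 17.7 for Cxcl10.

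The highest values of many members fell in a single gland. Cip2a-/- endpoint library 1 had the highest level of 16 of 37 members (43.2%), while it was highest for 4.19% of all genes tested. These were 11 of the 18 antiviral effectors, both genes of the ISG15 system, 2 transcription factors and 1 sensor, and none of the chemokines, GTPases or antigen processing genes. All 18 antiviral effectors were above their own median over the 18 libraries in this gland. Cip2a-/- untreated library 3 was highest for 7 members (18.9%, against 4.36% of all genes) and WT endpoint library 1 for 6 (16.2%, against 16.1% of all genes). At the other end, Cip2a-/- endpoint library 3 was lowest for 8 members, beside 18.05% of all genes, Cip2a-/- 2-week library 3 for 7, beside 3.93%, and WT endpoint library 2 for 6, beside 4.70%.

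**Figure D1:**
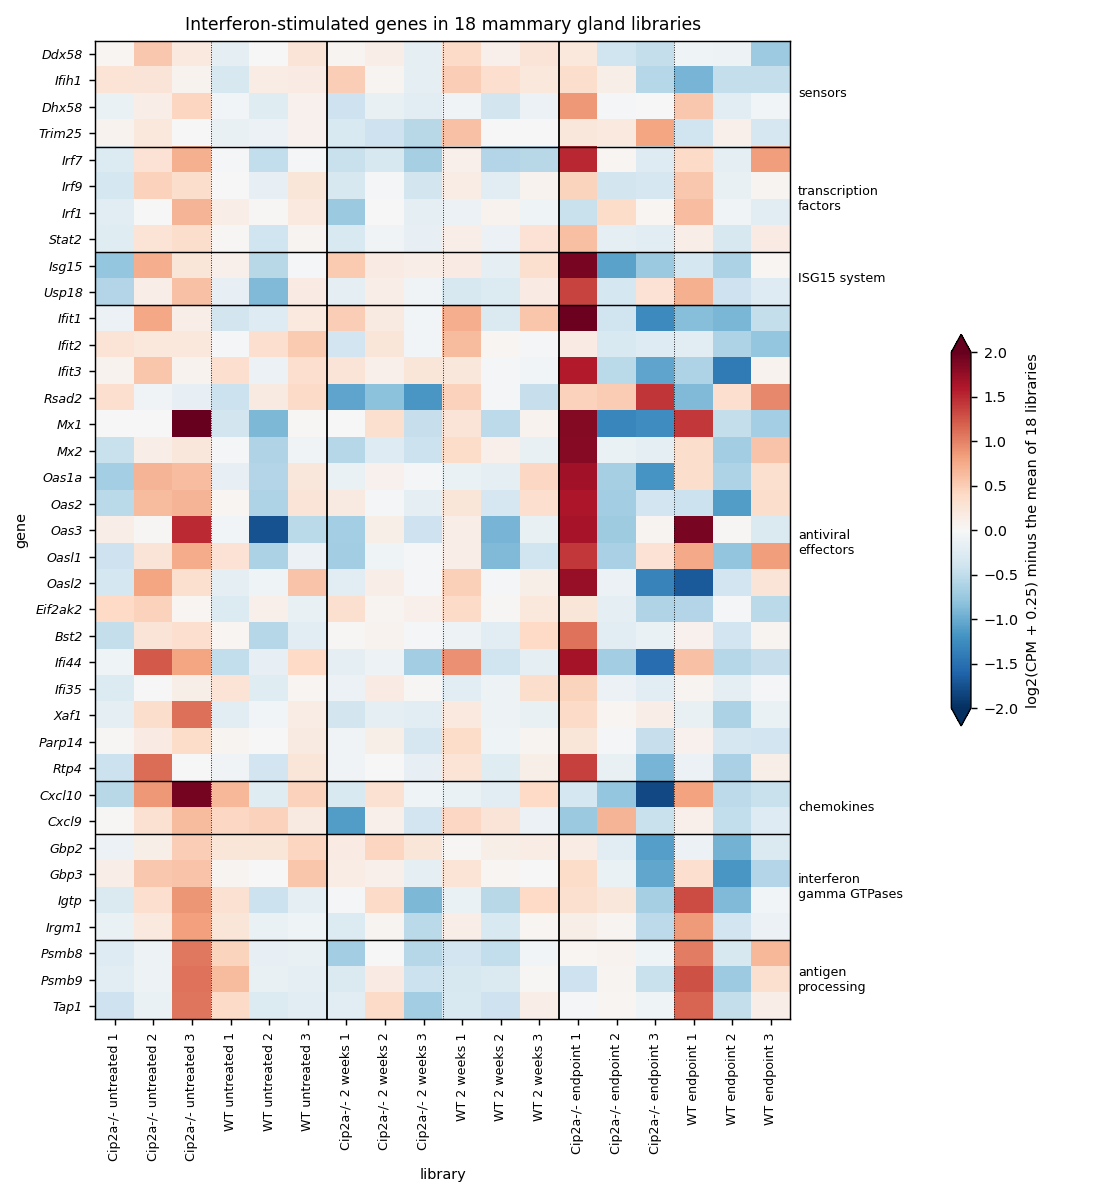
Level of the 37 genes in the 18 libraries, as log2(CPM + 0.25) minus the gene's mean over the libraries, with genes by role down the page and libraries across, Cip2a-/- left of WT in each condition. The most strongly raised column among the antiviral effectors and the ISG15 system is Cip2a-/- endpoint library 1, and the antigen processing genes are highest in Cip2a-/- untreated library 3 and WT endpoint library 1.

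The score of a gene group, the mean over its genes of log2 CPM centred per gene, showed 2 patterns that were not fully apart. For the antiviral effectors it was 1.20 in Cip2a-/- endpoint library 1, against -0.36 and -0.50 in the other Cip2a-/- endpoint libraries and 0.01, -0.53 and -0.01 in the WT endpoint libraries. The next highest antiviral score of all 18 was 0.52, in Cip2a-/- untreated library 3. The antigen processing score was highest in WT endpoint library 1 (1.15) and Cip2a-/- untreated library 3 (1.07), and it was -0.14 in Cip2a-/- endpoint library 1. Markers of T cells, measured beside them, had scores of 3.71, 2.83 and -1.30 in those 3 libraries. Their summed level was 612, 324 and 18.4 CPM, so the gland with the highest antiviral score was among those with few T cell transcripts. Its summed levels of B cell, plasmacytoid dendritic cell and macrophage markers were 57.5, 94.7 and 1093 CPM, all within the range of the other libraries. Its luminal epithelial sum, 3487 CPM, was the highest of all 18, with 3380.2 CPM in Cip2a-/- endpoint library 3, where the antiviral score was low. Its basal epithelial sum, 2068 CPM, was also the highest, just above the 2063 CPM of WT endpoint library 2. The 5 lymph node stroma markers summed to 588 CPM in it, second to 719 CPM in WT endpoint library 1 and against 8.92 and 62.1 CPM in the other Cip2a-/- endpoint libraries. Of that sum 570.4 CPM was Glycam1, a gene of lymph node vessels and of milk-producing epithelium, while Ccl19 and Cxcl13 had 2.51 CPM each, against 209 and 109 CPM in WT endpoint library 1, and Ccl21a had 0 reads in all libraries. The part of cell content in the members' levels was not tested. In bulk tissue, fewer cells of a type and less RNA per cell cannot be told apart.

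**Figure D2:**
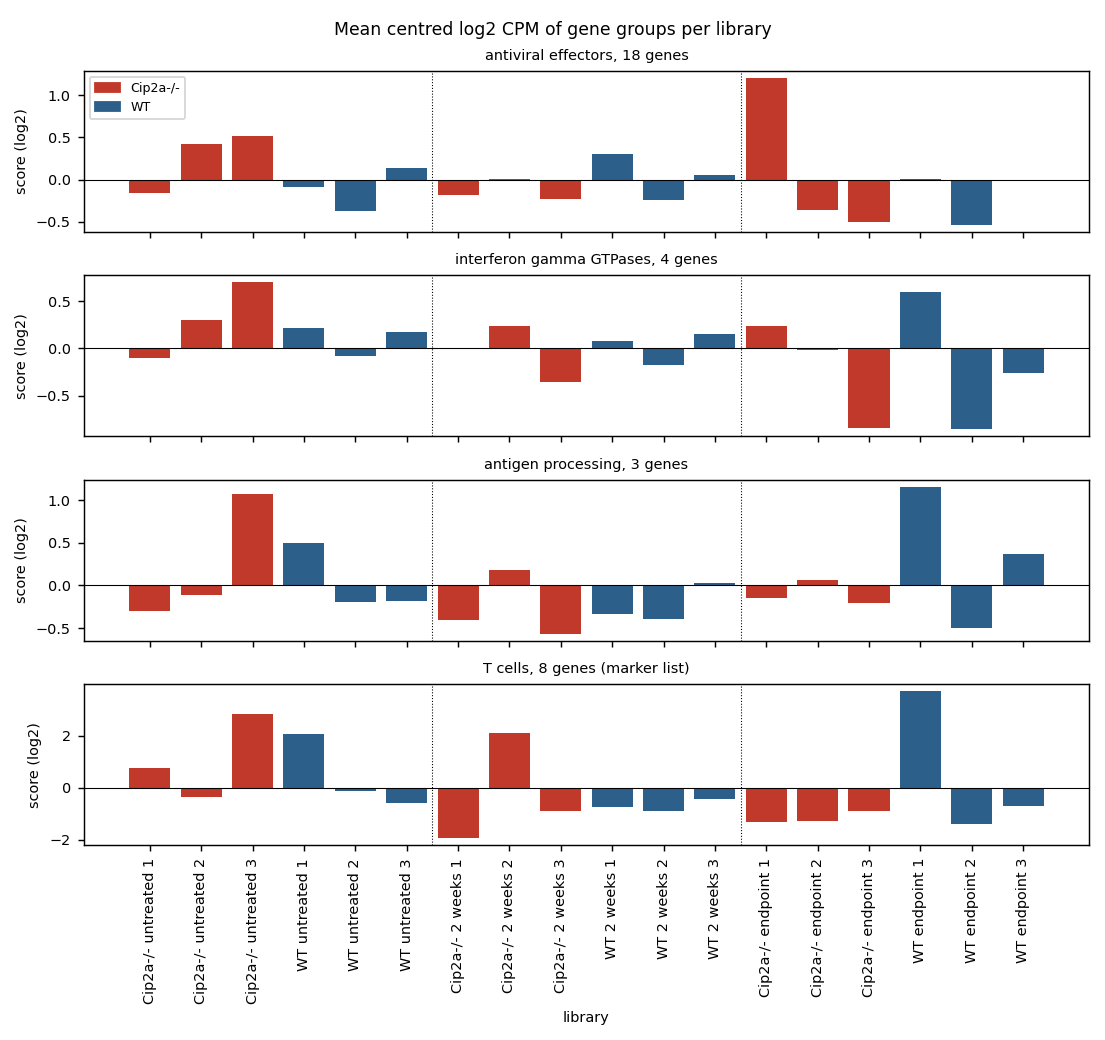
Score per library (mean of log2 CPM centred per gene) for the antiviral effectors, the interferon gamma GTPases, the antigen processing genes and a list of T cell markers, with Cip2a-/- libraries in red left of WT libraries in blue in each condition. The tallest antiviral bar, in Cip2a-/- endpoint library 1, stands over a T cell score below 0, while the tallest antigen processing bar, in WT endpoint library 1, stands over the highest T cell score.

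The sensors Ddx58 (RIG-I) and Ifih1 (MDA5) detect viral double-stranded RNA, Dhx58 regulates them and the ubiquitin ligase Trim25 activates RIG-I. Trim25, the sensor gene with the highest mean CPM, had 97.9, 108 and 92.3 CPM in Cip2a-/- glands and 83.3, 85.8 and 98.1 CPM in WT glands before treatment. At 2 weeks Trim25 had 74.8, 69.9 and 63.2 CPM in Cip2a-/- glands and 139, 92.9 and 93.5 CPM in WT glands. At the endpoint Trim25 had 109, 107 and 160.3 CPM in Cip2a-/- glands and 70.5, 99.4 and 73.1 CPM in WT glands. The 3 Cip2a-/- glands were thus below all WT glands at 2 weeks and above all of them at the endpoint, with overlap before treatment. Ifih1 had 31.9, 31.4 and 27.8 CPM in Cip2a-/- glands and 21.0, 29.3 and 29.5 CPM in WT glands before treatment. At 2 weeks Ifih1 had 37.01, 27.3 and 23.2 CPM in Cip2a-/- glands and 37.2, 33.4 and 30.5 CPM in WT glands. At the endpoint Ifih1 had 33.8, 28.6 and 17.6 CPM in Cip2a-/- glands and 13.7, 18.9 and 18.8 CPM in WT glands. The 4 lowest Ifih1 values were those of the 3 WT endpoint glands and of Cip2a-/- endpoint library 3, and the genotypes overlapped in every condition. Ddx58 had 48.2, 68.7 and 54.1 CPM in Cip2a-/- glands and 41.6, 46.6 and 56.2 CPM in WT glands before treatment. At 2 weeks Ddx58 had 49.1, 51.6 and 41.4 CPM in Cip2a-/- glands and 61.2, 50.8 and 56.4 CPM in WT glands. At the endpoint Ddx58 had 54.3, 35.6 and 34.0 CPM in Cip2a-/- glands and 44.2, 44.0 and 28.5 CPM in WT glands, with overlap between the genotypes in every condition. Dhx58, whose exons overlap an antisense gene, ran from 12.5 to 30.8 CPM, highest in Cip2a-/- endpoint library 1.

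Among the transcription factors, Irf7 amplifies interferon production, Irf9 and Stat2 belong to the complex that binds the ISRE, and Irf1 acts downstream of interferon gamma. Irf7 had 35.1, 52.2 and 69.7 CPM in Cip2a-/- glands and 41.8, 30.4 and 41.5 CPM in WT glands before treatment. At 2 weeks Irf7 had 31.4, 34.3 and 26.7 CPM in Cip2a-/- glands and 45.9, 28.5 and 28.9 CPM in WT glands. At the endpoint Irf7 had 121, 44.0 and 35.8 CPM in Cip2a-/- glands and 55.6, 37.1 and 76.2 CPM in WT glands. Its highest value, in Cip2a-/- endpoint library 1, was far from the other 2 of that group, and 5 of the 6 lowest values were those of 2-week glands. Irf1, the member with the highest mean CPM, had 107, 127 and 201 CPM in Cip2a-/- glands and 138, 127 and 143 CPM in WT glands before treatment. At 2 weeks Irf1 had 75.1, 126 and 109 CPM in Cip2a-/- glands and 116, 131 and 118 CPM in WT glands. At the endpoint Irf1 had 91.9, 162 and 129.7 CPM in Cip2a-/- glands and 193, 120.1 and 107 CPM in WT glands. Its 2 highest values were those of Cip2a-/- untreated library 3 and WT endpoint library 1, the 2 libraries with the highest T cell marker sums. Irf9 and Stat2 ranged more narrowly, from 38.6 to 72.7 CPM and from 51.4 to 103 CPM. Exons of Irf9 overlap those of Rnf31 on the same strand, and exons of Irf1 those of the protein-coding Gm17334 on the other strand, so their reads may be shared.

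Isg15 encodes a ubiquitin-like protein joined to other proteins, and Usp18 encodes the protease that removes it and dampens the interferon receptor. Isg15 had 4.54, 13.3 and 9.50 CPM in Cip2a-/- glands and 8.59, 5.36 and 7.86 CPM in WT glands before treatment. At 2 weeks Isg15 had 11.6, 8.93 and 8.77 CPM in Cip2a-/- glands and 8.91, 6.97 and 9.97 CPM in WT glands. At the endpoint Isg15 had 30.5, 3.65 and 4.65 CPM in Cip2a-/- glands and 6.15, 5.03 and 8.22 CPM in WT glands. The Cip2a-/- endpoint group thus held both the highest and the lowest Isg15 value of all 18 libraries. Usp18, whose exons overlap a non-coding gene on the other strand, had 6.04, 10.1 and 13.9 CPM in Cip2a-/- glands and 8.20, 4.86 and 10.3 CPM in WT glands before treatment. At 2 weeks Usp18 had 7.95, 10.1 and 8.72 CPM in Cip2a-/- glands and 7.27, 7.53 and 10.3 CPM in WT glands. At the endpoint Usp18 had 23.9, 7.15 and 11.3 CPM in Cip2a-/- glands and 15.3, 6.85 and 7.65 CPM in WT glands. Cip2a-/- endpoint library 1 was again the highest, and the genotypes overlapped in every condition.

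Ifit1 encodes a protein that binds viral RNA lacking a host cap. Ifit1 had 7.59, 14.3 and 9.15 CPM in Cip2a-/- glands and 6.33, 6.92 and 9.47 CPM in WT glands before treatment. At 2 weeks Ifit1 had 11.8, 9.40 and 7.98 CPM in Cip2a-/- glands and 13.8, 6.74 and 12.2 CPM in WT glands. At the endpoint Ifit1 had 32.9, 6.23 and 3.26 CPM in Cip2a-/- glands and 4.50, 4.26 and 5.88 CPM in WT glands. Apart from Cip2a-/- endpoint library 1, the endpoint glands held the 5 lowest Ifit1 values of the 18. Rsad2 encodes viperin, which makes a chain-terminating nucleotide. Rsad2 had 24.4, 18.4 and 17.2 CPM in Cip2a-/- glands and 14.2, 21.9 and 25.1 CPM in WT glands before treatment. At 2 weeks Rsad2 had 9.18, 10.8 and 8.49 CPM in Cip2a-/- glands and 26.8, 19.1 and 13.9 CPM in WT glands. At the endpoint Rsad2 had 26.6, 27.5 and 52.6 CPM in Cip2a-/- glands and 10.4, 24.4 and 37.7 CPM in WT glands. The 3 Cip2a-/- glands at 2 weeks were below all 3 WT glands at 2 weeks and all 6 untreated glands. Rsad2 was highest in Cip2a-/- endpoint library 3, which also had the highest neutrophil marker sum, 374 CPM, where Cip2a-/- endpoint libraries 1 and 2 had 36.1 and 9.08 CPM. The second highest Rsad2 value, 37.7 CPM in WT endpoint library 3, stood beside a neutrophil sum of 10.3 CPM. WT endpoint library 2 had 24.4 CPM of Rsad2 and a neutrophil sum of 146 CPM.

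Mx1 belongs to the Mx family of GTPase genes and had the largest spread of log2 CPM among the effectors. Mx1 had 4.48, 4.51 and 19.6 CPM in Cip2a-/- glands and 3.43, 2.29 and 4.60 CPM in WT glands before treatment. At 2 weeks Mx1 had 4.46, 5.67 and 3.20 CPM in Cip2a-/- glands and 5.44, 3.07 and 4.75 CPM in WT glands. At the endpoint Mx1 had 16.7, 1.67 and 1.77 CPM in Cip2a-/- glands and 12.4, 3.17 and 2.72 CPM in WT glands. Mx1 was far higher in 3 libraries, Cip2a-/- untreated 3, Cip2a-/- endpoint 1 and WT endpoint 1, than in the other 15, where it reached at most 5.67 CPM. Oas3 makes the second messenger that activates RNase L and was the member with the lowest mean level. Oas3 had 2.69, 2.48 and 7.30 CPM in Cip2a-/- glands and 2.34, 0.558 and 1.61 CPM in WT glands before treatment. At 2 weeks Oas3 had 1.44, 2.67 and 1.76 CPM in Cip2a-/- glands and 2.70, 1.16 and 2.19 CPM in WT glands. At the endpoint Oas3 had 8.17, 1.40 and 2.54 CPM in Cip2a-/- glands and 9.82, 2.48 and 1.96 CPM in WT glands, high in the same 3 libraries as Mx1. Xaf1 encodes a pro-apoptotic partner of XIAP. Xaf1 had 19.8, 28.8 and 48.6 CPM in Cip2a-/- glands and 19.3, 21.7 and 25.0 CPM in WT glands before treatment. At 2 weeks Xaf1 had 17.4, 19.7 and 19.1 CPM in Cip2a-/- glands and 25.8, 21.0 and 20.3 CPM in WT glands. At the endpoint Xaf1 had 29.4, 23.1 and 24.6 CPM in Cip2a-/- glands and 20.2, 14.4 and 20.3 CPM in WT glands. Its highest value was in Cip2a-/- untreated library 3.

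Eif2ak2 encodes PKR, the kinase that halts translation on double-stranded RNA. Eif2ak2, whose exons overlap a non-coding gene on the other strand, had 34.8, 36.6 and 27.0 CPM in Cip2a-/- glands and 21.9, 28.4 and 23.8 CPM in WT glands before treatment. At 2 weeks Eif2ak2 had 33.2, 27.5 and 28.4 CPM in Cip2a-/- glands and 34.4, 26.9 and 30.5 CPM in WT glands. At the endpoint Eif2ak2 had 31.2, 22.9 and 17.3 CPM in Cip2a-/- glands and 17.5, 26.1 and 18.1 CPM in WT glands. The 3 lowest Eif2ak2 values were endpoint ones. Ifit2, a partner of Ifit1, had 16.1, 15.4 and 15.4 CPM in Cip2a-/- glands and 13.1, 16.9 and 19.1 CPM in WT glands before treatment. At 2 weeks Ifit2 had 10.1, 15.7 and 12.8 CPM in Cip2a-/- glands and 20.6, 13.6 and 13.04 CPM in WT glands. At the endpoint Ifit2 had 14.8, 10.6 and 11.1 CPM in Cip2a-/- glands and 11.3, 8.59 and 7.65 CPM in WT glands. Its 2 lowest values were in WT endpoint glands. Parp14, an ADP-ribosyltransferase gene and the effector with the highest mean CPM, had 68.3, 74.7 and 86.2 CPM in Cip2a-/- glands and 69.3, 67.4 and 75.9 CPM in WT glands before treatment. At 2 weeks Parp14 had 63.3, 72.9 and 53.0 CPM in Cip2a-/- glands and 86.5, 63.1 and 69.3 CPM in WT glands. At the endpoint Parp14 had 79.4, 65.9 and 48.7 CPM in Cip2a-/- glands and 70.8, 53.0 and 51.4 CPM in WT glands, and the genotypes overlapped in every condition. The remaining effectors were Ifit3, Mx2, Oas1a, Oas2, Oasl1, Oasl2, Bst2, Ifi44, Ifi35 and Rtp4. All 10 were highest in Cip2a-/- endpoint library 1, from 12.2 CPM for Mx2 to 113 CPM for Bst2. Oasl2, an oligoadenylate synthetase-like gene, had the widest range of these, from 8.55 CPM in WT endpoint library 1 to 94.1 CPM. Reads of Ifit3 and Oas1a cannot be separated with certainty from those of their near-identical neighbours in the Ifit and Oas clusters.

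Cxcl9 and Cxcl10 attract T cells through the receptor Cxcr3. Cxcl10 had 1.91, 5.56 and 11.8 CPM in Cip2a-/- glands and 4.77, 2.46 and 4.15 CPM in WT glands before treatment. At 2 weeks Cxcl10 had 2.33, 3.68 and 2.74 CPM in Cip2a-/- glands and 2.65, 2.51 and 3.95 CPM in WT glands. At the endpoint Cxcl10 had 2.26, 1.61 and 0.664 CPM in Cip2a-/- glands and 5.32, 1.97 and 2.09 CPM in WT glands. Cxcl10 had its highest value in Cip2a-/- untreated library 3 and its lowest in Cip2a-/- endpoint library 3. Cxcl9 had 50.8, 61.3 and 77.1 CPM in Cip2a-/- glands and 66.8, 68.6 and 56.4 CPM in WT glands before treatment. At 2 weeks Cxcl9 had 23.0, 53.4 and 38.1 CPM in Cip2a-/- glands and 66.6, 59.6 and 46.0 CPM in WT glands. At the endpoint Cxcl9 had 29.8, 79.7 and 36.6 CPM in Cip2a-/- glands and 53.6, 35.4 and 41.5 CPM in WT glands. In Cip2a-/- endpoint library 1, the gland with the highest antiviral score, Cxcl10 was the sixth lowest and Cxcl9 the second lowest of the 18.

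The interferon gamma GTPases attack the vacuoles of intracellular pathogens. Gbp2 had 68.3, 80.9 and 105 CPM in Cip2a-/- glands and 88.1, 88.0 and 100.1 CPM in WT glands before treatment. At 2 weeks Gbp2 had 83.1, 99.8 and 87.6 CPM in Cip2a-/- glands and 75.6, 80.8 and 82.8 CPM in WT glands. At the endpoint Gbp2 had 82.1, 64.4 and 34.6 CPM in Cip2a-/- glands and 68.3, 38.5 and 60.7 CPM in WT glands, and the 4 lowest Gbp2 values were endpoint ones. Igtp, whose exons overlap those of Irgm2, had 31.3, 48.4 and 71.4 CPM in Cip2a-/- glands and 47.6, 28.5 and 33.5 CPM in WT glands before treatment. At 2 weeks Igtp had 37.4, 50.2 and 20.4 CPM in Cip2a-/- glands and 35.0, 26.0 and 50.8 CPM in WT glands. At the endpoint Igtp had 48.2, 45.3 and 24.3 CPM in Cip2a-/- glands and 95.6, 20.7 and 36.97 CPM in WT glands. Its 2 highest values were again those of WT endpoint library 1 and Cip2a-/- untreated library 3, and Irgm1 had the same 2 on top. Gbp3 ranged from 14.7 CPM in WT endpoint library 2 to 49.8 CPM in Cip2a-/- untreated library 3, and Irgm1 from 26.6 to 70.5 CPM.

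Psmb8 and Psmb9 encode immunoproteasome subunits and Tap1 the peptide transporter that feeds MHC class I. Tap1 had 89.4, 108 and 250.2 CPM in Cip2a-/- glands and 156, 97.9 and 102 CPM in WT glands before treatment. At 2 weeks Tap1 had 101, 154 and 73.2 CPM in Cip2a-/- glands and 96.2, 89.4 and 130.3 CPM in WT glands. At the endpoint Tap1 had 115, 122 and 112 CPM in Cip2a-/- glands and 267, 85.8 and 129.9 CPM in WT glands. A single gland in each of 2 groups stood far above the rest. Psmb9 had 43.1, 46.9 and 108 CPM in Cip2a-/- glands and 79.0, 45.8 and 44.2 CPM in WT glands before treatment. At 2 weeks Psmb9 had 41.2, 56.7 and 37.6 CPM in Cip2a-/- glands and 40.6, 41.5 and 51.3 CPM in WT glands. At the endpoint Psmb9 had 37.8, 52.8 and 37.2 CPM in Cip2a-/- glands and 123, 30.6 and 63.1 CPM in WT glands. Psmb9 and Tap1 share a divergent promoter and overlap, so unstranded counting could mix their reads. Psmb8 had 91.6, 103 and 228 CPM in Cip2a-/- glands and 149.8, 98.1 and 99.6 CPM in WT glands before treatment. At 2 weeks Psmb8 had 67.7, 109.7 and 74.5 CPM in Cip2a-/- glands and 84.1, 78.4 and 106 CPM in WT glands. At the endpoint Psmb8 had 113, 116 and 104 CPM in Cip2a-/- glands and 223, 88.3 and 174 CPM in WT glands. All 3 genes had their 2 highest values in Cip2a-/- untreated library 3 and WT endpoint library 1, and in neither genotype did treated and untreated glands separate.

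**Figure D3:**
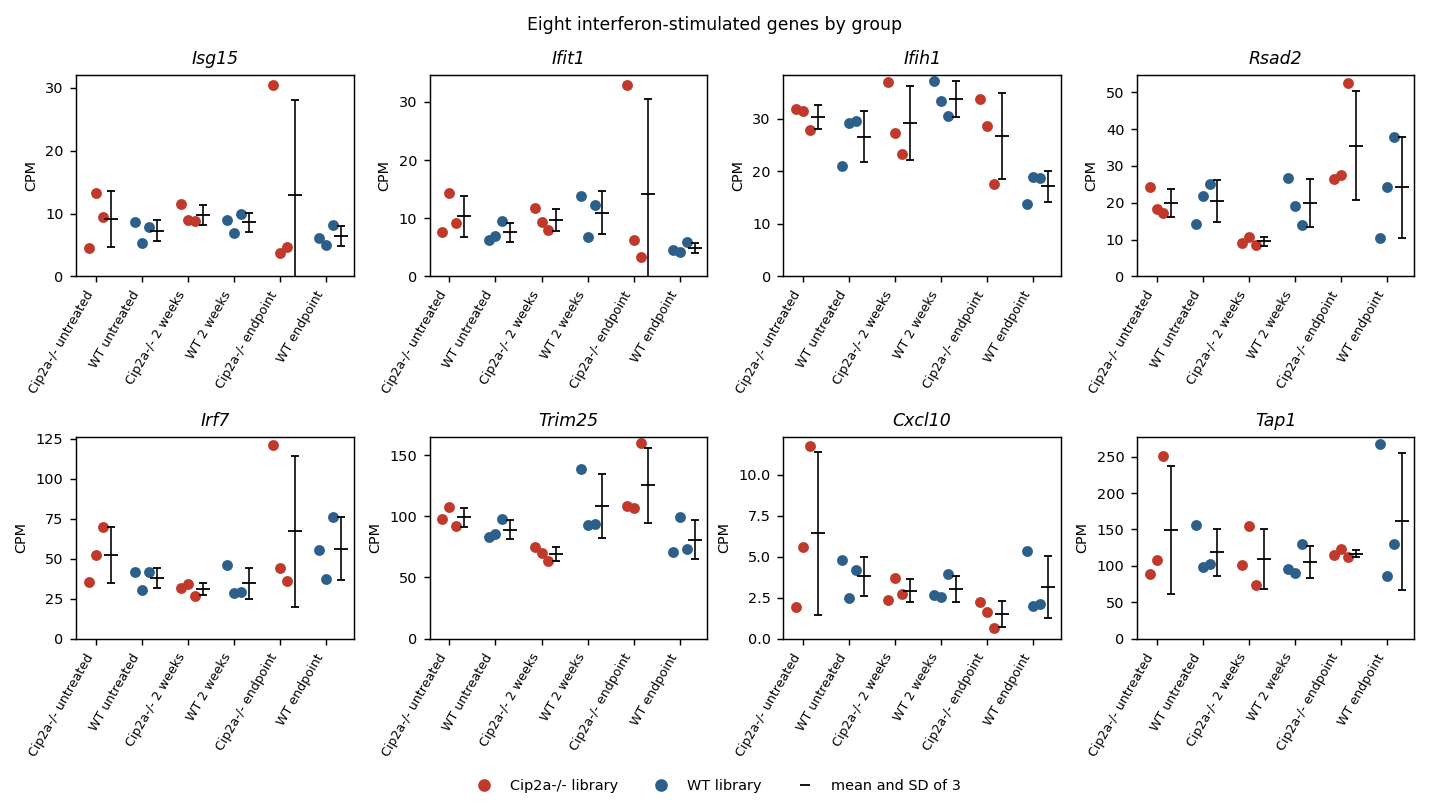
CPM of 8 of the genes in each library (points, Cip2a-/- red and WT blue) by group, with the mean and SD of the 3 libraries beside them; bars that reach below 0 are drawn from 0. Isg15 and Ifit1 show 1 high point, in the Cip2a-/- endpoint group, Rsad2 of the 3 Cip2a-/- 2-week libraries lies below that of every WT 2-week and every untreated library, and Trim25 of Cip2a-/- glands lies below WT at 2 weeks and above it at the endpoint.

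In untreated glands, Cip2a-/- values were higher than WT ones for most members, without a call. The log2 fold change was positive for 32 of 37 members, against 55.6% of all genes, with a median of 0.28 against 0.04 over all genes. EdgeR's quasi-likelihood test called 0 of 37 members at an adjusted p under 0.05, as it did 0% of all genes, and DESeq2 called 0. Without adjustment, edgeR found 1 member at a p under 0.05, against 2.27% of all genes in either direction and 1.72% higher. That was Xaf1, with 32.4 ± 14.7 CPM in Cip2a-/- glands, against 22.0 ± 2.86 CPM in WT glands (SD, 3 libraries each) and a log2 fold change of 0.56 ± 0.26 (SE). Oas3 (1.46 ± 0.77) and Eif2ak2 (0.41 ± 0.22) came next. The genotypes did not overlap for Oas3 alone of the 37, and for 12.4% of all genes. Xaf1 and Oas3 depended on Cip2a-/- untreated library 3. Without it their log2 fold changes were 0.14 and 0.77, and the median of the members was 0.13, with 28 of 37 positive. That library had a T cell marker sum of 324 CPM, against 76.6 and 38.0 CPM in the other untreated Cip2a-/- glands and 39.2 to 195 CPM in untreated WT glands.

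At 2 weeks the direction of most members was the opposite. The log2 fold change of Cip2a-/- over WT was positive for 8 of 37 members, against 55.8% of all genes, with a median of -0.12 against 0.04. EdgeR and DESeq2 called 0 members, and edgeR called 0.00646% of all genes. Its unadjusted p was under 0.05 for 2 members, both lower, against 2.44% of all genes in either direction and 1.09% lower. Trim25 had 69.3 ± 5.83 CPM in Cip2a-/- glands, against 108 ± 26.4 CPM in WT glands, a log2 fold change of -0.64 ± 0.20, and Rsad2 had 9.49 ± 1.18 CPM in Cip2a-/- glands, against 19.9 ± 6.49 CPM in WT glands, a log2 fold change of -1.07 ± 0.41. The genotypes did not overlap at 2 weeks for these genes, Mx2 and Xaf1, which were lower in Cip2a-/- glands, and Gbp2, which was higher, 5 of 37 members, while they did not overlap for 13.2% of all genes. Their unadjusted p values in edgeR were 0.00573 and 0.0199, and the smallest adjusted p of any member was 0.9998, in edgeR. Cxcl9 was the next, at -0.59 ± 0.35. Without WT 2-week library 1, the highest gland for Trim25, the log2 fold change of Trim25 was -0.43, and without Cip2a-/- 2-week library 1 that of Cxcl9 was -0.31. When each 2-week library was left out in turn, the median of the members ran from -0.26, without Cip2a-/- library 2, to -0.07, without WT library 1.

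At the endpoint Cip2a-/- values were again mostly above WT ones, and this rested on a single gland. The log2 fold change was positive for 28 of 37 members, against 47.6% of all genes, with a median of 0.21 against -0.02. Without Cip2a-/- endpoint library 1 it was positive for 7 of 37 and the median was -0.25. EdgeR and DESeq2 called 0 members, with 0.00646% of all genes called by edgeR. At an unadjusted p under 0.05 there were 3 members, all higher, against 10.7% of all genes in either direction and 4.05% higher. Ifit1 had 14.1 ± 16.3 CPM in Cip2a-/- glands, against 4.88 ± 0.874 CPM in WT glands, and a log2 fold change of 1.54 ± 0.62, which was -0.06 without that library. Ifih1 had 26.7 ± 8.25 CPM in Cip2a-/- glands, against 17.1 ± 2.97 CPM in WT glands, and a log2 fold change of 0.64 ± 0.24, which was 0.41 without it. Trim25 had 125 ± 30.3 CPM in Cip2a-/- glands, against 81.0 ± 16.01 CPM in WT glands, and a log2 fold change of 0.63 ± 0.20, and its smallest value when any library was left out was 0.41, without Cip2a-/- endpoint library 3. The genotypes did not overlap at the endpoint for Trim25 and Xaf1, 2 of 37 members, and for 5.28% of all genes. By role the antiviral effectors had a median of 0.47, with 17 of 18 positive, and the antigen processing genes one of -0.55, with 0 of 3 positive. T cell markers summed to 18.4 to 27.7 CPM in Cip2a-/- and 18.1 to 612 CPM in WT endpoint glands. Leaving out WT endpoint library 1, which had that highest T cell sum, gave a median of 0.46 over the members, with 33 of 37 positive.

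Averaged over the 3 conditions, the members were close between the genotypes. The median log2 fold change was 0.12, against 0.01 over all genes, and 28 of 37 were positive, against 54.3% of all genes. EdgeR called 0 members, DESeq2 called 0, and 0 had an unadjusted p under 0.05, against 0.917% of all genes at that limit and 0.00646% at an adjusted p under 0.05. The smallest p values were those of Xaf1 (0.26 ± 0.15), Ifit1 (0.61 ± 0.35) and Ifih1 (0.21 ± 0.14). Without Cip2a-/- endpoint library 1 the median was -0.06, with 8 of 37 positive, and Ifit1 stood at 0.06. Without Cip2a-/- untreated library 3 Xaf1 stood at 0.13.

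**Figure D4:**
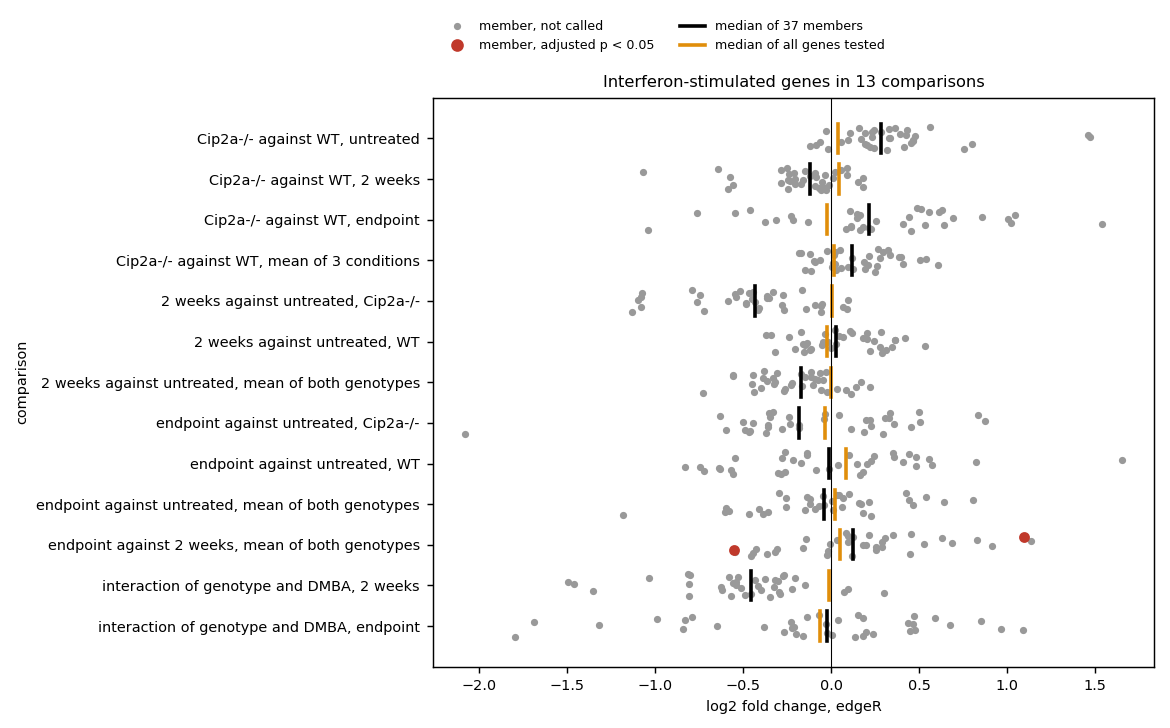
Log2 fold change (x axis) of each of the 37 genes in the 13 comparisons (y axis), with the median of the members in black and that of all genes tested in orange. The member median lies right of the all-gene median for Cip2a-/- against WT in untreated and endpoint glands and left of it at 2 weeks, and the only points past an adjusted p of 0.05 are Rsad2 and Ifih1, at the endpoint against 2 weeks.

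In Cip2a-/- glands, 2 weeks after DMBA, 34 of 37 members had lower values than in untreated glands, against 50.3% of all genes with higher ones. The median was -0.43, against 0.00 over all genes. EdgeR and DESeq2 called 0 members, with 0.0129% of all genes called by edgeR. At an unadjusted p under 0.05 there were 3, all lower, against 4.53% of all genes in either direction and 2.47% lower. These were Xaf1 (-0.79 ± 0.26), Rsad2 (-1.07 ± 0.41) and Trim25 (-0.52 ± 0.20), each without overlap between the 3 treated and the 3 untreated Cip2a-/- glands. That held for 6 of 37 members in all, with Dhx58, Irf7 and Ifi44, and for 12.4% of all genes. The comparison shares its 2-week libraries with the genotype comparison at 2 weeks and its untreated ones with that in untreated glands. In each genotype the library numbers in the labels were all higher at 2 weeks than in untreated glands. What these numbers stand for is not stated. Without Cip2a-/- untreated library 3 the median was -0.22 and Xaf1 stood at -0.37, and without Cip2a-/- untreated library 1 the median was -0.63. T cell markers summed to 12.2 to 189 CPM at 2 weeks and 38.0 to 324 CPM in untreated Cip2a-/- glands. With a lymphoid score (the mean of the T and B cell scores) as a covariate the median of the members was -0.27 and Xaf1 stood at -0.67.

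In WT glands the members were near 0 at 2 weeks. The median was 0.03, against -0.02 over all genes, and 20 of 37 were positive. EdgeR and DESeq2 called 0 members and 0 had an unadjusted p under 0.05, against 4.23% of all genes at that limit and 0% at an adjusted p under 0.05. The smallest p values were those of Ifih1 (0.34 ± 0.24), Trim25 (0.28 ± 0.20) and Eif2ak2 (0.31 ± 0.22). Without WT 2-week library 1 Trim25 stood at 0.07 and the median at -0.09. Averaged over the genotypes, edgeR and DESeq2 called 0 members, against 0.0258% of all genes by edgeR. The median was -0.17, with 6 of 37 positive, against 49.9% of all genes. That median was -0.32 without Cip2a-/- untreated library 1, -0.10 without WT untreated library 3 and -0.04 with the lymphoid score as a covariate. Psmb8 was the 1 member with an unadjusted p under 0.05, at -0.56 ± 0.25 over both genotypes, against 6.57% of all genes in either direction and 3.16% lower. Psmb8 stood at -0.29 without Cip2a-/- untreated library 3 and at -0.16 with the lymphoid score as a covariate. Xaf1 (-0.38 ± 0.18) and Rsad2 (-0.56 ± 0.29) followed.

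Whether the 2-week effect differed between the genotypes was tested as an interaction. It was negative for 34 of 37 members and positive for 3, against 49.1% of all genes with a positive value. The median was -0.46, against -0.01 over all genes. The 37 members were measured in the same libraries, so their directions are not separate observations. A negative value means that 2-week glands stood lower relative to untreated ones in Cip2a-/- than in WT mice. EdgeR and DESeq2 called 0 members, and edgeR called 0% of all genes. Those with an unadjusted p under 0.05 were Trim25 (-0.80 ± 0.28) and Xaf1 (-0.81 ± 0.37), 2 of 37, against 2.9% of all genes in either direction and 1.63% lower. Rsad2 followed at -1.04 ± 0.57. The median ran from -0.59 to -0.33 when each library was left out in turn, so its sign did not rest on a single gland. Xaf1 stood at -0.40 without Cip2a-/- untreated library 3. All 4 groups of this interaction also enter the comparisons given before, so the interaction adds no separate measurement.

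At the endpoint, against untreated glands, Cip2a-/- members had a median of -0.18, against -0.04 over all genes, with 16 of 37 positive. EdgeR called 0 members and 0% of all genes, and DESeq2 called 1, Cxcl10, beside 1.77% of all genes. In edgeR 2 members, Cxcl10 and Ddx58, had an unadjusted p under 0.05, both lower, against 14.6% of all genes. Cxcl10 averaged 1.51 ± 0.801 CPM at the endpoint and 6.41 ± 4.98 CPM in untreated Cip2a-/- glands (SD, 3 libraries each), a log2 fold change of -2.08 ± 0.62. EdgeR gave it an adjusted p of 0.270, DESeq2 one of 0.0426. Without Cip2a-/- untreated library 3 its log2 fold change was -1.30, and the lowest untreated value, in library 1, was below the highest endpoint value. Ddx58 stood at -0.47 ± 0.22 and Eif2ak2 at -0.46 ± 0.22. The median turned on single glands. It was -0.54 without Cip2a-/- endpoint library 1 and 0.14 without Cip2a-/- untreated library 3. T cell markers summed to 18.4 to 27.7 CPM at the endpoint and 38.0 to 324 CPM in untreated Cip2a-/- glands. With the lymphoid score as a covariate the median was 0.20 and Cxcl10 stood at -1.50.

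WT endpoint members had a median of -0.01 against untreated glands, beside 0.08 over all genes, with 18 of 37 positive. EdgeR called 0 members and 0.0323% of all genes, and DESeq2 called 1, Ifit2, beside 1.95% of all genes. With no adjustment, edgeR gave 3 members a p under 0.05, all lower, against 12% of all genes in either direction and 5.47% lower. Ifit2 averaged 9.17 ± 1.88 CPM at the endpoint and 16.3 ± 3.06 CPM in untreated WT glands, a log2 fold change of -0.83 ± 0.24, with an adjusted p of 0.230 with edgeR and 0.0419 with DESeq2. Gbp2 averaged 55.8 ± 15.5 CPM at the endpoint and 92.1 ± 6.95 CPM in untreated WT glands, a log2 fold change of -0.72 ± 0.27. Ifih1 averaged 17.1 ± 2.97 CPM at the endpoint and 26.6 ± 4.81 CPM in untreated WT glands, a log2 fold change of -0.63 ± 0.24. The endpoint and untreated WT glands did not overlap for any of these 3 genes, nor for Ifit1 and Cxcl9, 5 of 37 members, while they did not overlap for 16.3% of all genes. The median was -0.17 without WT endpoint library 1 and 0.14 without WT endpoint library 2.

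Averaged over the genotypes, the endpoint members had a median of -0.04 against untreated glands, beside 0.02 over all genes, with 18 of 37 positive. EdgeR called 0 members, against 0.252% of all genes, and DESeq2 called 1, Ifit2, beside 5.13%. At an unadjusted p under 0.05 there were 7 members, all lower, against 7.4% of all genes lower and 16.9% in either direction. Ifit2 stood at -0.60 ± 0.17 (adjusted p = 0.119 with edgeR and 0.0230 with DESeq2), Gbp2 at -0.61 ± 0.19 and Cxcl10 at -1.18 ± 0.42. Cxcl10 was the least stable of them, at -0.79 without Cip2a-/- untreated library 3. Without Cip2a-/- endpoint library 1 the median of the members was -0.34.

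The interaction at the endpoint had a median of -0.02, against -0.06 over all genes, with 18 of 37 members positive. EdgeR and DESeq2 called 0 members and 0 had an unadjusted p under 0.05 in edgeR, against 10% of all genes at that limit and 0% at an adjusted p under 0.05. Cxcl10 came nearest, at -1.80 ± 0.84, with Trim25 at 0.47 ± 0.28 and Psmb8 at -0.83 ± 0.51. Single glands moved these values too. Without Cip2a-/- untreated library 3 Cxcl10 stood at -1.02 and Psmb8 at -0.29, and without Cip2a-/- endpoint library 1 the median of the members was -0.48. Without WT endpoint library 1 that median was 0.21. With Cip2a-/- untreated library 3, Cip2a-/- 2-week library 2 and WT endpoint library 1 all left out it was 0.33, and Cxcl10 stood at -0.40.

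Members passed the test only in the comparison of endpoint with 2-week glands, averaged over the genotypes. Time since DMBA, age and a tumour elsewhere in the mouse may all differ between these glands and cannot be told apart here. The library numbers in the labels were also all higher at 2 weeks than at the endpoint, and what they stand for is not stated. EdgeR called 2 of 37, Rsad2 higher and Ifih1 lower, while it called 13.4% of all genes (6.41% higher and 6.94% lower), so a count of 2 is no result about the members as a group. DESeq2 called 5, adding Irf7, Eif2ak2 and Gbp2, beside 19.2% of all genes. At an unadjusted p under 0.05 there were 10 members, 5 higher and 5 lower, against 30.1% of all genes. The median was 0.13, against 0.05 over all genes, with 24 of 37 positive, against 53.6% of all genes. The values lay on both sides of 0.

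Rsad2 was higher at the endpoint than at 2 weeks. Its lowest, median and highest values were 10.4, 27.0 and 52.6 CPM in the 6 endpoint glands and 8.49, 12.3 and 26.8 CPM in the 6 glands at 2 weeks, with overlap. The log2 fold change was 1.09 ± 0.29 (SE), with an adjusted p of 0.0255 in edgeR. By genotype it averaged 35.5 ± 14.8 CPM at the endpoint and 9.49 ± 1.18 CPM at 2 weeks in Cip2a-/- glands, without overlap. In WT glands it averaged 24.2 ± 13.7 CPM at the endpoint and 19.9 ± 6.49 CPM at 2 weeks, with overlap. Whether the change differs between the genotypes was not tested. Untreated glands averaged 20.0 ± 3.86 CPM of Rsad2 in Cip2a-/- and 20.4 ± 5.61 CPM in WT mice, so the Cip2a-/- 2-week mean was below the untreated one. The call was lost, with the direction kept, when any of 5 libraries was left out. Adjusted p was 0.0554 without Cip2a-/- 2-week library 1, 0.0590 and 0.0659 without WT 2-week libraries 2 and 3, 0.0667 without Cip2a-/- endpoint library 3 and 0.0612 without WT endpoint library 3, each in edgeR. With the lymphoid score as a covariate the log2 fold change was 1.12 and adjusted p was 0.0222. Neutrophil markers summed to 9.08 to 374 CPM in Cip2a-/- and 10.3 to 146 CPM in WT endpoint glands, against 12.1 to 22.7 CPM and 9.90 to 11.02 CPM at 2 weeks, and their part in the Rsad2 difference was not tested.

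Ifih1 fell at the endpoint. Its lowest, median and highest values were 13.7, 18.8 and 33.8 CPM in the 6 endpoint glands and 23.2, 31.9 and 37.2 CPM in the 6 glands at 2 weeks. The log2 fold change was -0.55 ± 0.17, with an adjusted p of 0.0440 in edgeR. The difference was larger in WT glands, at 17.1 ± 2.97 CPM at the endpoint and 33.7 ± 3.39 CPM at 2 weeks without overlap, than in Cip2a-/- glands, at 26.7 ± 8.25 CPM at the endpoint and 29.2 ± 7.08 CPM at 2 weeks, but whether these differ was not tested. This call was near its limit and was lost, with the direction kept, without any of 14 of the 18 libraries, with adjusted p up to 0.112 (edgeR), reached without Cip2a-/- 2-week library 1. It held without WT untreated library 1, Cip2a-/- 2-week library 3, Cip2a-/- endpoint library 1 or WT endpoint library 2.

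Irf7 lay just outside the threshold, with a log2 fold change of 0.91 ± 0.29 and an adjusted p of 0.05004 in edgeR. Its lowest, median and highest values were 35.8, 49.8 and 121 CPM at the endpoint and 26.7, 30.2 and 45.9 CPM at 2 weeks. Without Cip2a-/- endpoint library 1 its log2 fold change was 0.54. The other members with an unadjusted p under 0.05 were Dhx58 (0.45 ± 0.19), Psmb8 (0.63 ± 0.26) and Oasl1 (0.83 ± 0.39), which had higher values, and Eif2ak2 (-0.45 ± 0.16), Gbp2 (-0.55 ± 0.19), Ddx58 (-0.36 ± 0.15) and Ifit2 (-0.43 ± 0.17), which had lower ones. Isg15, highest and lowest within the Cip2a-/- endpoint group, stood at 0.00 ± 0.43. Leaving out Cip2a-/- endpoint library 1 gave 7 called members, 1 higher and 6 lower: Rsad2, and Ifih1, Ddx58, Eif2ak2, Gbp2, Ifit1 and Ifit3. The median of the members was then -0.14. The range of all genes called when single libraries were left out is given at the end of the report, without a value for this library. The count of 7 is therefore no result about the members as a group.

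**Figure D5:**
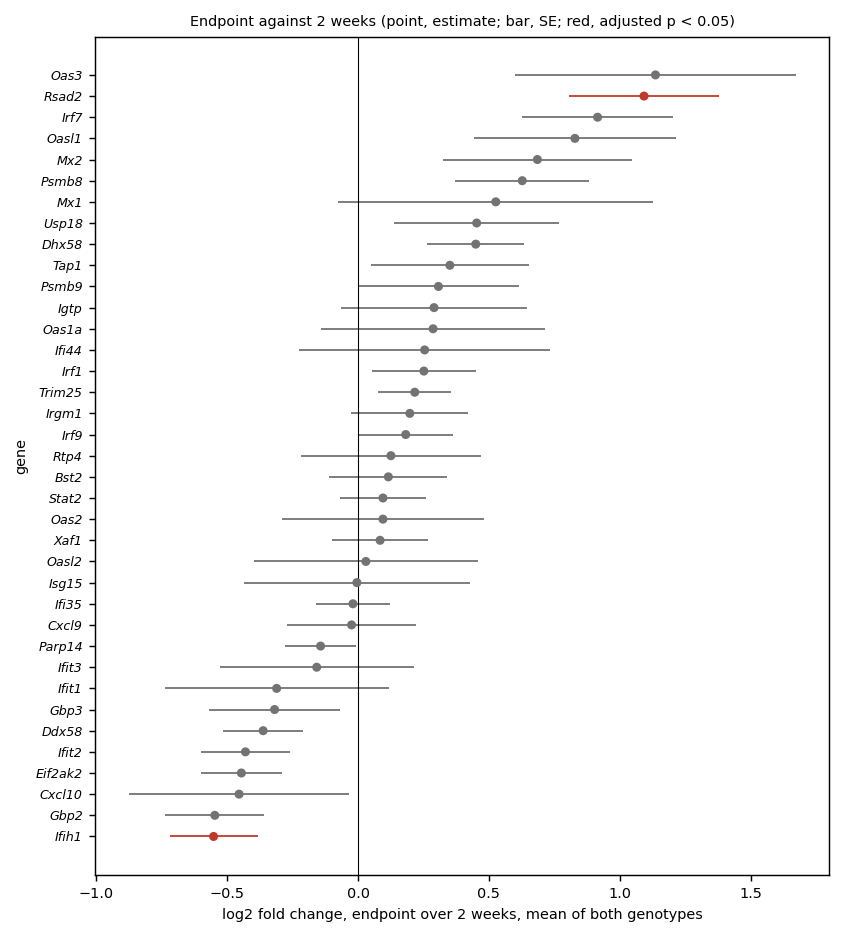
Log2 fold change of each of the 37 genes at the endpoint over 2 weeks, averaged over the genotypes (points), with its standard error (bars), ordered by size down the page; red marks an adjusted p under 0.05. Rsad2 is the only called gene right of 0 and Ifih1 the only one left of it, and the widest bars belong to genes such as Mx1 and Oas3 with few high libraries.

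Other genes of the pathway were taken from a list of 93, of which 91 were in the table and 80 were tested; Helz2 and Rnf213 were not matched. The interferons themselves were at or near the limit of detection. Of 11 interferon genes 7 had 0 reads in all 18 libraries, which allows up to 0.00854 CPM each over the libraries together (3 reads). Ifnb1 had 2 reads in all, 1 in each of Cip2a-/- endpoint libraries 1 and 2. Ifng had 102 reads in 15 libraries, with 0.0598, 0.275 and 1.39 CPM in Cip2a-/- glands and 0.651, 0.112 and 0.111 CPM in WT glands before treatment. At 2 weeks Ifng had 0.137, 0.339 and 0.139 CPM in Cip2a-/- glands and 0.385, 0.232 and 0.210 CPM in WT glands. At the endpoint Ifng had 0, 0.161 and 0 CPM in Cip2a-/- glands and 1.08, 0 and 0.126 CPM in WT glands. Its 2 highest values, in Cip2a-/- untreated library 3 and WT endpoint library 1, were in the glands with the highest antigen processing scores, and its value in Cip2a-/- endpoint library 1 was 0.

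The receptor subunits were transcribed in every gland. Ifnar1 ranged from 64.1 to 128 CPM, Ifnar2 from 62.6 to 125 CPM, Ifngr1 from 112 to 365 CPM and Ifngr2 from 35.9 to 72.2 CPM. The kinase gene Tyk2 ranged from 54.5 to 97.8 CPM. None of these genes passed the edgeR test in any of the 13 comparisons.

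In 12 of the 13 comparisons edgeR called 0 of the 80 tested pathway genes. In those 12, between 1 and 19 genes had an unadjusted p under 0.05 in edgeR, beside 0.917% to 16.9% of all genes. The 19, 3 higher and 16 lower, were at the endpoint against untreated Cip2a-/- glands, beside 14.6% of all genes. DESeq2 called 0 in 8 of the 12 and 1 at 2 weeks against untreated glands over both genotypes. That 1 is given without DESeq2's share of all genes, so it is no result about the pathway genes as a group. At the endpoint against untreated glands it called 2 in Cip2a-/- mice, beside 1.77% of all genes, and 2 in WT mice, beside 1.95%. Over both genotypes it called 7, beside 5.13%. At the endpoint against 2 weeks edgeR called 9, 3 higher and 6 lower, beside 13.4% of all genes, and DESeq2 called 18, beside 19.2%. Irf3, the constitutive factor that switches on interferon genes, rose, with lowest, median and highest values of 99.3, 103 and 124 CPM at the endpoint and 57.0, 74.4 and 77.9 CPM at 2 weeks, without overlap. Its log2 fold change was 0.55 ± 0.09 (adjusted p = 0.00470, edgeR), and it was called in each of the 24 alternatives. Untreated glands had 72.2, 81.7 and 88.4 CPM as lowest, median and highest values, also below every endpoint gland, and the log2 fold change of the endpoint over untreated glands was 0.38 ± 0.09 (adjusted p = 0.0867 with edgeR and 0.00114 with DESeq2). The exonuclease gene Isg20 (1.31 ± 0.33) and the membrane protein gene Ifitm1 (1.34 ± 0.35) also rose, and their highest values, 105 and 34.7 CPM, were in Cip2a-/- endpoint library 3, as for Rsad2. Jak1, the kinase shared by the receptors, fell, with 118, 128 and 206 CPM at the endpoint and 178, 187 and 222 CPM at 2 weeks as lowest, median and highest values and a log2 fold change of -0.48 ± 0.14. The endosomal RNA receptor gene Tlr3 (-0.55 ± 0.17), Dtx3l (-0.57 ± 0.17), the helicase gene Ddx60 (-0.74 ± 0.19), Slfn5 (-0.43 ± 0.12) and Gbp7 (-1.11 ± 0.26) fell as well. Gbp7, a guanylate-binding GTPase gene, was also called in all 24, and the other 7 were each lost in some of them, with the direction kept. Isg20 stood at 0.77 (adjusted p = 0.0354, edgeR) without Cip2a-/- endpoint library 3, the gland with the highest neutrophil marker sum. When single libraries were left out, edgeR called 2 to 13 of the 80, fewest without WT 2-week library 2 and most without Cip2a-/- untreated library 3. These counts are given without the share of all genes in the same fits.

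Other pathway genes named by the rule did not pass edgeR's test. Against untreated glands at 2 weeks, averaged over the genotypes, Ido1, the tryptophan-degrading enzyme, had a log2 fold change of 3.36 ± 0.88 (adjusted p = 0.399 with edgeR and 0.00369 with DESeq2). Its lowest, median and highest values were 2.26, 25.4 and 65.7 CPM at 2 weeks and 0.440, 1.78 and 7.82 CPM in untreated glands. Jak2 stood at 0.38 ± 0.17 in the same comparison. Between the genotypes, averaged over the 3 conditions, Lgals3bp stood at 0.45 ± 0.19 and Ddx60 at 0.31 ± 0.15. At the endpoint against untreated glands Dtx3l stood at -0.68 ± 0.17 (adjusted p = 0.101 with edgeR and 0.0115 with DESeq2).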

How the data were processed

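RNA-seq gene counts of 18 mammary gland libraries, 3 in each of 6 groups, were deposited by the authors as raw counts in a table for the whole series, and all values were whole numbers of at least 0. Per the submitters' processing notes the tools were bcl2fastq 2.17, STAR 2.5.2b and Subread 1.5.1, with the mm10 build; the sources used here do not give the gene models or how strand and multi-mapping reads were treated. 0 columns were without a matching sample, and 0 rows named no gene. Groups follow the labels.

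Low counts were filtered with filterByExpr at a minimum count of 10 and a minimum total of 15. EdgeR 4.0.16 in R 4.3.3 fitted all 18 libraries with TMM scaling and 1 term per group, its quasi-likelihood test gave 13 contrasts, with Benjamini-Hochberg adjustment across the 15482 tested genes and calls at an adjusted p under 0.05. CPM values use TMM library sizes, log2 CPM a prior count of 2. The fit was checked on simulated counts. DESeq2 1.42.0, other scaling, no filter, a replicate block, a lymphoid covariate, leaving out 3 libraries together, fitting only the groups compared and leaving out each library were the alternatives. The 3 left out together were Cip2a-/- untreated 3, Cip2a-/- 2-week 2 and WT endpoint 1. They had high lymphoid marker sums but were not the 3 highest. WT untreated library 1, which was kept, had T and B cell sums of 195 and 628 CPM, against 189 and 300 CPM in Cip2a-/- 2-week library 2.

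Members and lists were chosen with earlier results of these data known. Every-library values are printed for members called in a comparison, for the 3 smallest p values where fewer than 3 were called, and for the highest mean CPM and the largest log2 SD in each role. Named pathway genes are the receptors, kinases, Ifnb1 and Ifng, those called, and per averaged contrast those with the 2 smallest p values; 1 further pathway gene of the rule is not reported here. At these depths, 3 reads summed over all libraries set the limit for a gene at 0, which covers counting error only.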

Additional observations from a re-analysis of the deposited data

How the results depend on the processing

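In 12 of the 13 comparisons no member was called by edgeR under any alternative, and DESeq2 called 1 member at the endpoint against untreated glands in Cip2a-/- mice, 1 in WT mice and 1 over both genotypes. At the endpoint against 2 weeks the 2 called members became 1 without the filter on low counts, 1 with Cip2a-/- untreated library 3, Cip2a-/- 2-week library 2 and WT endpoint library 1 all left out, 5 with DESeq2 and 0 to 7 when single libraries were left out. The count was 0 without Cip2a-/- 2-week library 1, WT 2-week library 2, WT 2-week library 3 or WT endpoint library 3, 5 without WT endpoint library 2 and 7 without Cip2a-/- endpoint library 1. Adjusted p of Rsad2 ran from 0.00308 to 0.0667 over the alternatives and that of Ifih1 from 0.0178 to 0.112. Of the named members' values under alternatives, 926 kept direction and side of the threshold, 21 lost a call, 8 gained one and 2 changed sign. Those were Ifit1 for Cip2a-/- against WT at the endpoint, which ran from -0.0638 to 2.01 when single libraries were left out, and Psmb8 in the interaction at the endpoint, which was 0.0105 with the same 3 libraries left out. The cause of these moves was not tested. The median of the members moved by more than 0.367, the pooled SD of the member score within groups, in 3 of 319 cases. It was -0.25 for Cip2a-/- against WT at the endpoint and -0.48 for the interaction at the endpoint, both without Cip2a-/- endpoint library 1, and 0.20 for the endpoint against untreated in Cip2a-/- glands with the lymphoid covariate.

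Same-numbered libraries of different groups did not deviate together as a rule, with correlations of -0.468 to 0.660, median 0.000636, over 45 pairs, of which 17 exceeded 0.1, so the numbers were not taken to pair the glands. With the replicate number as a block, 2 members were called at the endpoint against 2 weeks and 0 in the other comparisons. The same 2 members were called, with an adjusted p of 0.0426 for Rsad2 and 0.0497 for Ifih1.

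Counts of all genes called also moved. When single libraries were left out, and over the other alternatives, they were 0 and 0 to 6 for Cip2a-/- against WT in untreated glands (as reported 0), 0 to 2 and 0 to 3 at 2 weeks (as reported 1), 0 to 6 and 0 to 78 at the endpoint (as reported 1) and 1 to 2 and 1 to 3 over the 3 conditions (as reported 1). They were 0 to 3 and 0 to 36 for 2 weeks against untreated in Cip2a-/- glands (as reported 2), 0 and 0 to 15 in WT glands (as reported 0) and 1 to 12 and 2 to 88 over both genotypes (as reported 4). They were 0 to 9 and 0 to 273 for the endpoint against untreated in Cip2a-/- glands (as reported 0), 0 to 46 and 0 to 308 in WT glands (as reported 5) and 2 to 279 and 7 to 828 over both genotypes (as reported 39), 978 to 2610 and 1675 to 3245 for the endpoint against 2 weeks (as reported 2067), 0 to 1 and 0 to 7 for the interaction at 2 weeks (as reported 0) and 0 to 1 and 0 to 34 for that at the endpoint (as reported 0). Pathway genes named in the text kept direction in all alternatives, 65 values losing a call and 4 gaining one. Scaling by DESeq2's size factors moved the median of all genes by less than 0.1 in each comparison. Precision is limited by 3 libraries per group and, for Oas3, Mx2, Mx1 and Cxcl10, the members with the lowest levels per length, also by depth.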
